A study of Mus musculus with 4 samples.

Results

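The glycolysis and hypoxia response genes are 38 genes chosen by name: the oxygen-sensitive transcription factors of the HIF family with their oxygen sensors, the enzymes and transporters that turn glucose into lactate, and well-known targets of the hypoxia response. Of these, 37 were found by symbol among the 40092 genes of the count table, and all 37 had enough reads to be tested. The remaining gene, named Ero1l in the list, stands in the table under its newer symbol Ero1a; it is given separately and is not in the counts below. The genes were measured by RNA-seq in alveolar type II (AT2) cells, the surfactant-secreting progenitor cells of the alveolus, sorted from mouse lung as GFP+ cells on day 14 after bleomycin, a drug that injures the alveolar epithelium. The 2 Ctrl libraries came from Alkbh5flox/+; Sftpc-CreERT2; Rosa26-mTmG mice and the 2 A5-CKO libraries from Alkbh5flox/flox; Sftpc-CreERT2; Rosa26-mTmG mice, and both genotypes received tamoxifen and bleomycin. Alkbh5 encodes an RNA demethylase that removes m6A marks. Cre was driven from the surfactant gene Sftpc, so that recombination took place in AT2 cells, and the Rosa26-mTmG reporter made recombined cells and their progeny GFP+. The Ctrl cells could therefore lose 1 copy of Alkbh5 and were not wild type, although the count table heads their columns as such. The sources used here give neither the age of the mice nor whether a library is 1 mouse, so p-values measure the spread between libraries only.

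HIF is a transcription factor made of an alpha subunit (Hif1a or Epas1) and a shared partner (Arnt). At normal oxygen, prolyl hydroxylases encoded by Egln1, Egln2 and Egln3 mark the alpha subunit for destruction by the Vhl ubiquitin ligase, and at low oxygen the alpha subunit persists and raises transcription of glycolytic enzymes, glucose and lactate transporters and growth factors such as Vegfa. Because the alpha subunits are controlled largely at the level of protein, their mRNA is not a measure of HIF activity. AT2 cells normally hold high Epas1 mRNA and are a source of Vegfa for the alveolar capillaries.

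The libraries held 18144865 to 20811757 counts. Levels are given as normalized read counts, that is, counts divided by library size after TMM scaling (CPM), and a floor of 3 counts lay at 0.128 to 0.177 CPM; it covers counting error only. Alkbh5 had 81.7 and 152 CPM in the Ctrl libraries and 19.3 and 36.6 CPM in the A5-CKO libraries, a log2 fold change of -2.06 whose adjusted p was 0.528 by the quasi-likelihood test of edgeR and 0.0224 by DESeq2. The summed level of 8 AT2 markers was 53838 and 76993 CPM in the Ctrl libraries and 39852 and 32774 CPM in the A5-CKO libraries, so the sorted cells carried AT2 RNA in every library. Fewer cells of a type and less RNA per cell cannot be told apart in bulk samples. The 9 macrophage markers summed to 2909.6 CPM in Ctrl 1 and 2270.4 CPM in A5-CKO 2 against 478 CPM in Ctrl 2 and 273 CPM in A5-CKO 1, so that Ctrl 1 and A5-CKO 2 held more macrophage RNA than the other two.

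No member passed an adjusted p of 0.05 in edgeR (0 of 37, against 0% of the 16661 genes tested), and none did in DESeq2, where the smallest adjusted p of a member was 0.212 and 0.385% of the genes with an adjusted p were called. At an unadjusted p under 0.05, 6 members differed between the genotypes: Pfkfb3 and Vegfa were higher in A5-CKO cells, and Egln2, Pfkl, Ldhb and Bnip3 were lower. The background at this threshold was 9.18% of all genes tested, 4.48% higher and 4.71% lower. With scaling by total counts alone these calls became 4 higher and 1 lower (1706 and 171 over all genes): Hif1a and Pfkp joined Pfkfb3 and Vegfa, and of the lower genes Egln2 remained. The point estimates lay below 0 for 24 members and above 0 for 13, and 49.1% of all genes lay above 0. The median log2 fold change of the members was -0.11, beside -0.02 over all genes. Under that scaling the median of all genes became 0.30 and that of the members 0.21, so that 22 members lay above 0, and the difference between both medians was -0.09 under either scaling. With a correction for GC content and transcript length, 20 members lay above 0 and 17 below, with a median of 0.06.

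For 13 members (35.1%) the Ctrl libraries lay above the A5-CKO libraries without overlap, a pattern held by 23.5% of all genes tested. These were Egln1, Egln2, Gpi1, Pfkl, Aldoa, Aldoc, Tpi1, Ldha, Ldhb, Slc16a1, Bnip3, P4ha1 and P4ha2. Both A5-CKO libraries lay above both Ctrl libraries for 5 members (13.5%), Hif1a, Pfkp, Pfkfb3, Vegfa and Ankrd37, beside 20.3% of all genes tested. The other 19 members overlapped between the genotypes. These shares are descriptions, since 2 libraries against 2 cannot give a two-sided permutation p below 0.333.

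**Figure D1:**
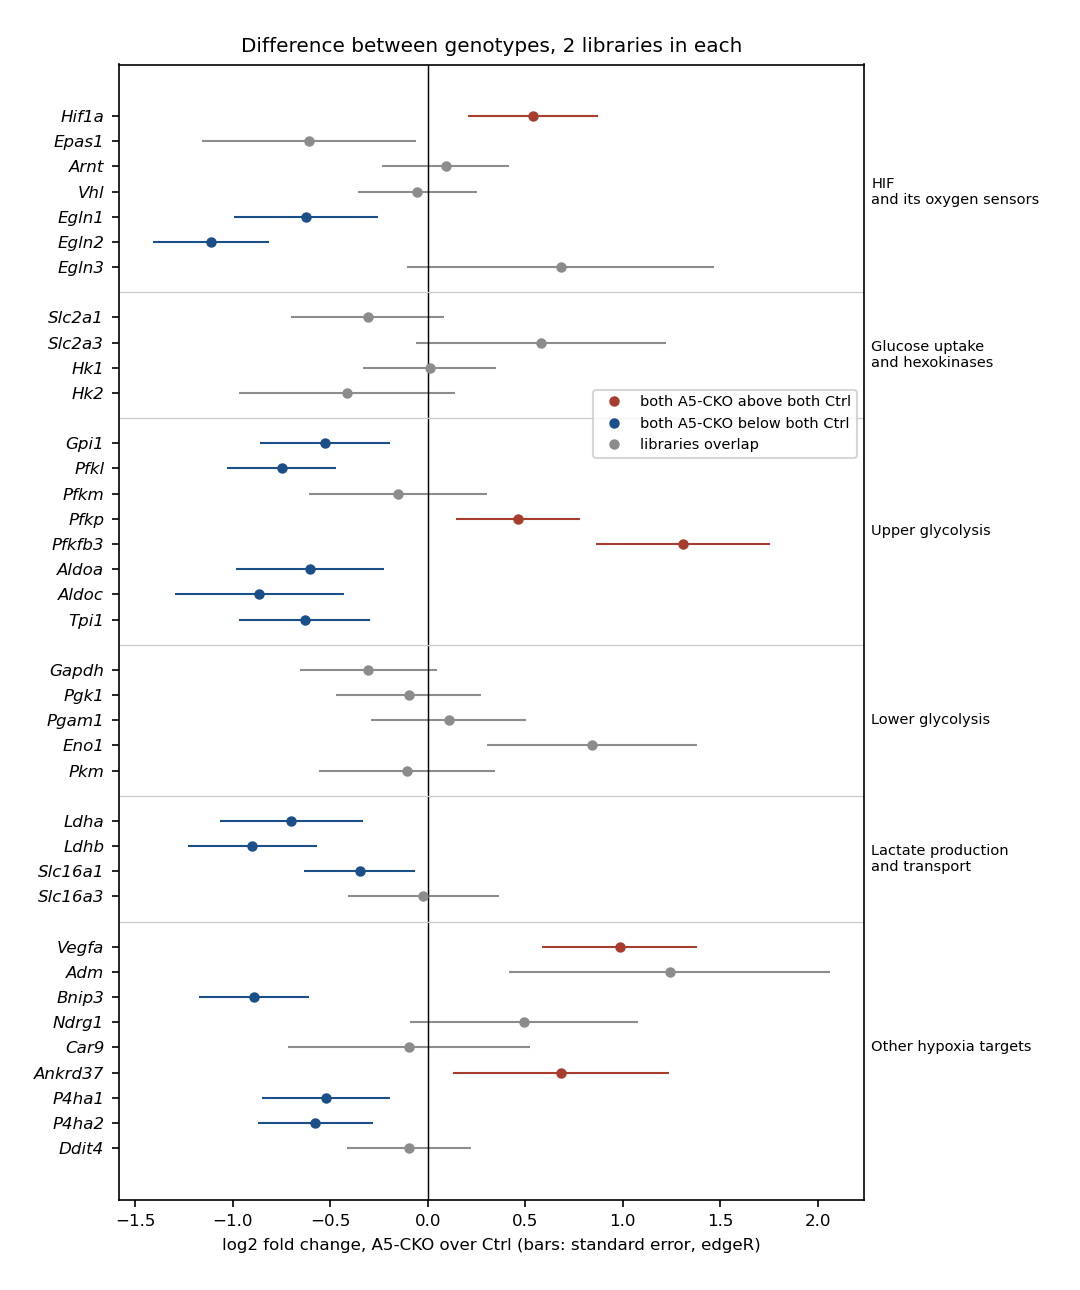
Log2 fold change of each of the 37 members (A5-CKO over Ctrl, horizontal axis), grouped by role; points are edgeR estimates and bars their standard errors, with 2 libraries in each genotype. Red points mark the 5 members with both A5-CKO libraries above both Ctrl libraries, blue points the 13 with both below, and grey points the 19 that overlapped; the estimates run from -1.11 for Egln2 to 1.31 for Pfkfb3.

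The 6 members with an unadjusted p under 0.05 are described first, and each had an adjusted p of 0.528 in edgeR. Pfkfb3, which makes the sugar bisphosphate that activates phosphofructokinase, had 17.5 and 11.2 CPM in the Ctrl libraries and 24.9 and 46.2 CPM in the A5-CKO libraries. Both A5-CKO libraries were higher, A5-CKO 2 the most, and the log2 fold change was 1.31 (SE 0.45, unadjusted p = 0.0222 by edgeR). Vegfa, the endothelial growth factor, had 173 and 208 CPM in the Ctrl libraries and 492 and 261 CPM in the A5-CKO libraries. Here A5-CKO 1 was the highest library, and the log2 fold change of 0.98 (SE 0.40, unadjusted p = 0.0433 by edgeR) became 0.44 without it. The estimate of Pfkfb3 became 0.77 without A5-CKO 2 and 0.99 without Ctrl 2.

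Egln2, a prolyl hydroxylase that marks HIF alpha subunits, had 214 and 171 CPM in the Ctrl libraries and 86.8 and 91.3 CPM in the A5-CKO libraries. The A5-CKO libraries lay close together and well below the Ctrl libraries, with a log2 fold change of -1.11 (SE 0.30, unadjusted p = 0.00762 by edgeR), the smallest p of any member. Bnip3, a mitochondrial protein that starts mitophagy in hypoxia, had 158 and 149 CPM against 86.3 and 79.2 CPM (log2 fold change -0.89, SE 0.28, unadjusted p = 0.0163 by edgeR). Pfkl, the liver-type subunit of phosphofructokinase, had 100.1 and 104 CPM against 56.0 and 65.6 CPM (log2 fold change -0.75, SE 0.28, unadjusted p = 0.0324 by edgeR). For these genes the replicates of each genotype differed by less than the genotypes did. Ldhb, the lactate dehydrogenase subunit common in oxidative tissue, had 364 and 398 CPM in the Ctrl libraries and 237 and 172 CPM in the A5-CKO libraries (log2 fold change -0.90, SE 0.33, unadjusted p = 0.0304 by edgeR). All 6 kept their direction when any 1 library was left out and under every other processing alternative tried. Their size and their unadjusted p did change. The libraries of these 6 genes did not overlap between the genotypes. Leaving out 1 library could therefore hardly change the direction, so a kept direction is no support. By total counts Bnip3 was at -0.58 (unadjusted p = 0.0807 by edgeR), Ldhb at -0.58 (unadjusted p = 0.116 by edgeR) and Pfkl at -0.43 (unadjusted p = 0.167 by edgeR). After correction for both GC content and length Egln2 was at -0.67 (unadjusted p = 0.0292 by edgeR), Ldhb at -0.56 (unadjusted p = 0.129 by edgeR) and Pfkl at -0.53 (unadjusted p = 0.0611 by edgeR), and Slc16a1 and P4ha1 passed 0.05 in their place. With 1 library left out, the estimates ran from -1.31 to -0.88 for Egln2 and from -0.98 to -0.79 for Bnip3. They ran from -0.90 to -0.65 for Pfkl and from -1.16 to -0.72 for Ldhb.

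The promoters of these 6 genes are printed because the hypoxia response acts through short promoter letters. HIF binds the core ACGTG or GCGTG, which reads CACGT or CACGC on the other strand. The sequences are the 250 bases before the transcription start from RefSeq (build GRCm38.p6), written 5′ to 3′ on the strand of the gene, with each match to a core on either strand in capitals. All 6 genes lie on the minus strand, and the windows are, in the order printed, chr17:46032378-46032627, chr2:11553930-11554179, chr7:27166803-27167052, chr7:138909507-138909756, chr10:78009808-78010057 and chr6:142507958-142508207.
Vegfa: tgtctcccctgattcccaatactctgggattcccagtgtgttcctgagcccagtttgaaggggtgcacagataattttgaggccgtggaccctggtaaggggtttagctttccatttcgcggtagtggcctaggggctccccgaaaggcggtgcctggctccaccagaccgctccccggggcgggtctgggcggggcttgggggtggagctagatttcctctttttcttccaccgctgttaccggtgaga
Pfkfb3: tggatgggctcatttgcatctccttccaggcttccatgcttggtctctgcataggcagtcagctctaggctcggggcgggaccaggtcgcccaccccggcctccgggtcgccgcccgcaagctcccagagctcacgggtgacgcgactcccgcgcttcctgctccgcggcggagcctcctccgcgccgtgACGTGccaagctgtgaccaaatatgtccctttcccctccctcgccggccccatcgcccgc
Egln2: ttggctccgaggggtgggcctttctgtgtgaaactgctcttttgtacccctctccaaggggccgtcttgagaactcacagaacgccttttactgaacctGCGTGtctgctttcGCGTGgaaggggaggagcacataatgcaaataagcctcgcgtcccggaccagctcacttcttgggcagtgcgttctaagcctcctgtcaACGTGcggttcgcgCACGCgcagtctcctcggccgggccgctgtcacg
Bnip3: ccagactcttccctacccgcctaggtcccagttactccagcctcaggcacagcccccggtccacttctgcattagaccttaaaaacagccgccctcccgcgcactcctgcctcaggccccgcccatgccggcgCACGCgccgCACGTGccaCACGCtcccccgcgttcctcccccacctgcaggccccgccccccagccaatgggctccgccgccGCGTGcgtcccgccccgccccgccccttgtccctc
Pfkl: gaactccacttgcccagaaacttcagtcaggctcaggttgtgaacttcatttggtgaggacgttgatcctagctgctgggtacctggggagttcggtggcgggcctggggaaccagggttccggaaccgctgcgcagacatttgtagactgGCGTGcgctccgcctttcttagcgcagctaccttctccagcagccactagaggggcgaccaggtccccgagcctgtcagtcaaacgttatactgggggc
Ldhb: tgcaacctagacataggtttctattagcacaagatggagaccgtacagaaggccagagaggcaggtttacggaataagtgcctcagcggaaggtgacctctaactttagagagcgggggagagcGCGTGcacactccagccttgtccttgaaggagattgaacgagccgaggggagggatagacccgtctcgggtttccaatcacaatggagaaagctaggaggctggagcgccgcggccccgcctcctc
The Vegfa window held no core (0 matches), the windows of Pfkfb3, Pfkl and Ldhb held 1 each, that of Egln2 held 4 and that of Bnip3 held 5. The run CACGTG in the Bnip3 window counts as a match on both strands and also spells the E-box read by other factors. Of the 37 members, 34 had a promoter in the RefSeq table, all but Epas1, Slc2a3 and Ndrg1. A core was present in 27 of these 34 (79.4%), in 52.9% of the 12798 promoters of tested genes and in 38.6% of all 27025 promoters. The members' windows also had a higher median GC content, 62.4% against 58.8% for tested genes. Members with a core had a median log2 fold change of -0.15 (9 above 0 and 18 below), and the 7 without had -0.11 (2 above 0 and 5 below). A match is a description of letters and not a binding site. Sequence farther upstream was not searched, so a window with 0 matches does not show that a gene lacks a core.

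**Figure D2:**
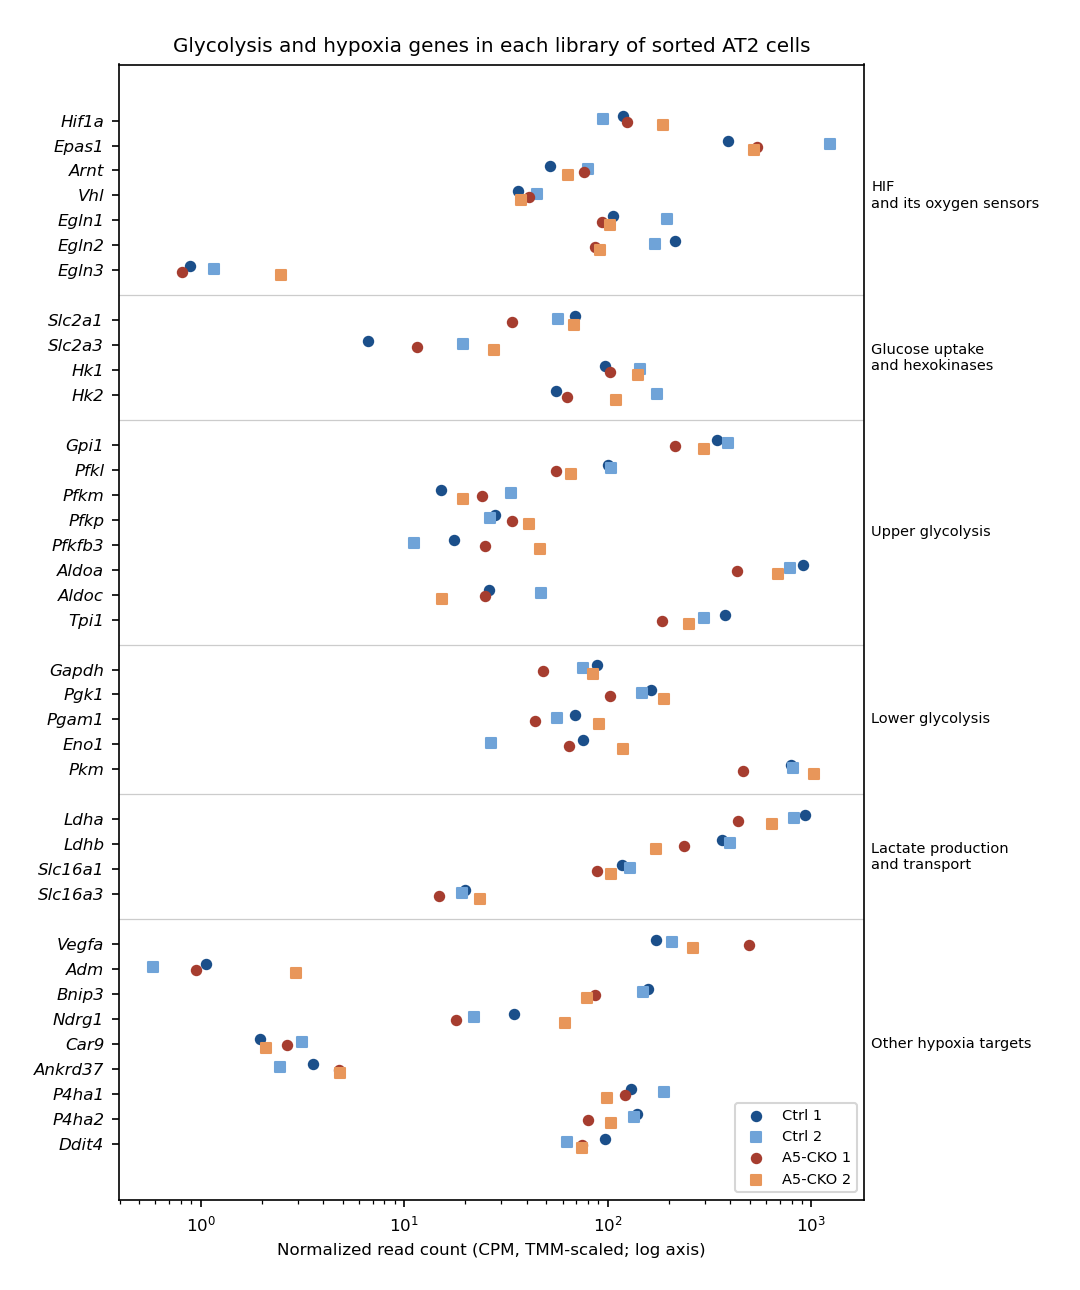
Normalized read counts (CPM, log axis) of the 37 members in each of the 4 libraries, grouped by role; blue symbols are Ctrl and red or orange symbols A5-CKO libraries, with circles for replicate 1 and squares for replicate 2. The blue symbols sit to the right of the warm ones for Egln2, Pfkl, Ldhb and Bnip3 and to the left for Pfkfb3 and Vegfa, whereas the lower glycolysis genes overlap.

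Of the 7 genes of HIF and its oxygen sensors, 3 had an estimate above 0 and 4 below, with a median log2 fold change of -0.05 that lay above 0 when the libraries were scaled by total counts. Hif1a had 119 and 94.6 CPM in the Ctrl libraries and 124 and 187 CPM in the A5-CKO libraries. Both A5-CKO libraries were higher, but A5-CKO 1 exceeded Ctrl 1 only slightly, and the log2 fold change of 0.54 (SE 0.34, unadjusted p = 0.152 by edgeR) did not exceed the spread and became 0.18 without A5-CKO 2. Epas1, the second alpha subunit, had 388 CPM in Ctrl 1, 1236 CPM in Ctrl 2, 542 CPM in A5-CKO 1 and 522 CPM in A5-CKO 2. Ctrl 2 alone was high, so the log2 fold change of -0.61 (SE 0.55) became 0.41 without it. Arnt, the common partner, had 52.1 and 79.5 CPM against 76.2 and 64.1 CPM, and Vhl had 36.3 and 45.0 CPM against 41.0 and 37.4 CPM. Both overlapped between the genotypes.

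Among the prolyl hydroxylases, Egln2 has been described. Egln1, held to be the main oxygen sensor of most cells, had 106 and 196 CPM in the Ctrl libraries and 93.3 and 102 CPM in the A5-CKO libraries. The A5-CKO libraries were lower, but Ctrl 1 lay much closer to them than to Ctrl 2, and the log2 fold change was -0.62 (SE 0.37, unadjusted p = 0.136 by edgeR), or -0.15 without Ctrl 2. Egln3, a hypoxia-induced hydroxylase, was scarce, with 0.887 and 1.16 CPM against 0.815 and 2.48 CPM. Its estimate of 0.68 came from A5-CKO 2 and became -0.36 without that library. Per length, Egln2 made up 77.4% and 59.6% of the 3 hydroxylase transcripts in the Ctrl libraries and 61.1% and 59.5% in the A5-CKO libraries, so it was the major form in each library.

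Glucose uptake and hexokinase genes were split, 2 above 0 and 2 below, and all 4 overlapped between the genotypes. Slc2a1, the widespread glucose transporter, had 69.1 and 57.2 CPM in the Ctrl libraries and 33.7 and 68.3 CPM in the A5-CKO libraries. Slc2a3, a high-affinity glucose transporter, had 6.62 and 19.4 CPM against 11.5 and 27.5 CPM. In both genes A5-CKO 2 was higher than A5-CKO 1 by over 2-fold. Hk1, the constitutive hexokinase, had 96.9 and 144 CPM against 102 and 141 CPM, and Hk2, the inducible one, 55.9 and 175 CPM against 63.1 and 110.0 CPM. Within the Ctrl genotype Hk2 thus varied by 1.64 on the log2 scale, and its estimate of -0.41 became 0.60 without Ctrl 2.

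Upper glycolysis, from glucose 6-phosphate to triose phosphate, had a median log2 fold change of -0.57 over 8 genes, which was -0.25 both by total counts and after correction for GC content and length. Estimates lay below 0 for 6 of them and above 0 for Pfkp and Pfkfb3. Besides Pfkl, the genes lower in each A5-CKO library than in either Ctrl library were Gpi1, Aldoa, Aldoc and Tpi1. Gpi1, the isomerase that makes fructose 6-phosphate, had 346 and 391 CPM in the Ctrl libraries and 214 and 297 CPM in the A5-CKO libraries (log2 fold change -0.53, SE 0.33). Aldoa, the main aldolase, had 907 and 785 CPM against 429 and 685 CPM (-0.60, SE 0.38). Tpi1, triose phosphate isomerase, had 376 and 297 CPM against 185 and 250 CPM (-0.63, SE 0.34). In these 3 genes A5-CKO 1 was the lowest library and A5-CKO 2 came close to the lower Ctrl library. Aldoc, a minor aldolase here, had 26.1 and 47.1 CPM against 24.9 and 15.3 CPM (-0.86, SE 0.44, unadjusted p = 0.0885 by edgeR), with the lowest level in A5-CKO 2. Leaving out 1 library moved these values to -0.32 for Gpi1 and for Aldoa (both without A5-CKO 1), -0.39 for Tpi1 (without Ctrl 1) and -0.43 for Aldoc (without Ctrl 2), and after the GC and length correction Aldoa was at -0.19 and Tpi1 at -0.31.

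The 3 phosphofructokinase subunits did not move alike. Pfkp, the platelet-type subunit, had 28.1 and 26.3 CPM in the Ctrl libraries and 34.0 and 40.9 CPM in the A5-CKO libraries, with a log2 fold change of 0.46 (SE 0.32, unadjusted p = 0.190 by edgeR). Pfkm, the muscle type, had 15.1 and 33.3 CPM against 24.2 and 19.4 CPM and overlapped. Expressed as shares of the 3 subunits per length, which do not depend on library scaling, Pfkl made up 69.0% and 60.9% in the Ctrl libraries and 47.5% and 51.4% in the A5-CKO libraries. Pfkp made up 17.4% and 13.8% against 25.9% and 28.9%. The share of Pfkl was lower by 15.5 percentage points on average in A5-CKO cells and that of Pfkp higher by 11.8. Neither overlapped between the genotypes. Nor did the shares of Slc2a1 (92.7% and 78.14% against 78.08% and 75.1%), Slc2a3 and Egln3 in their families. Slc2a1 and Slc2a3 alone make up their family here, so their shares mirror each other, and the margin was narrow. Egln3 rested on 15 and 20 counts in the Ctrl libraries and 18 and 58 in the A5-CKO libraries. The shares of all other genes compared in this way overlapped, and how often such shares separate among other genes was not computed. Pfkl remained the most abundant subunit in each library. The GC and length correction brought the fitted values closer together, from -0.75 to -0.53 for Pfkl and from 0.46 to 0.09 for Pfkp.

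**Figure D3:**
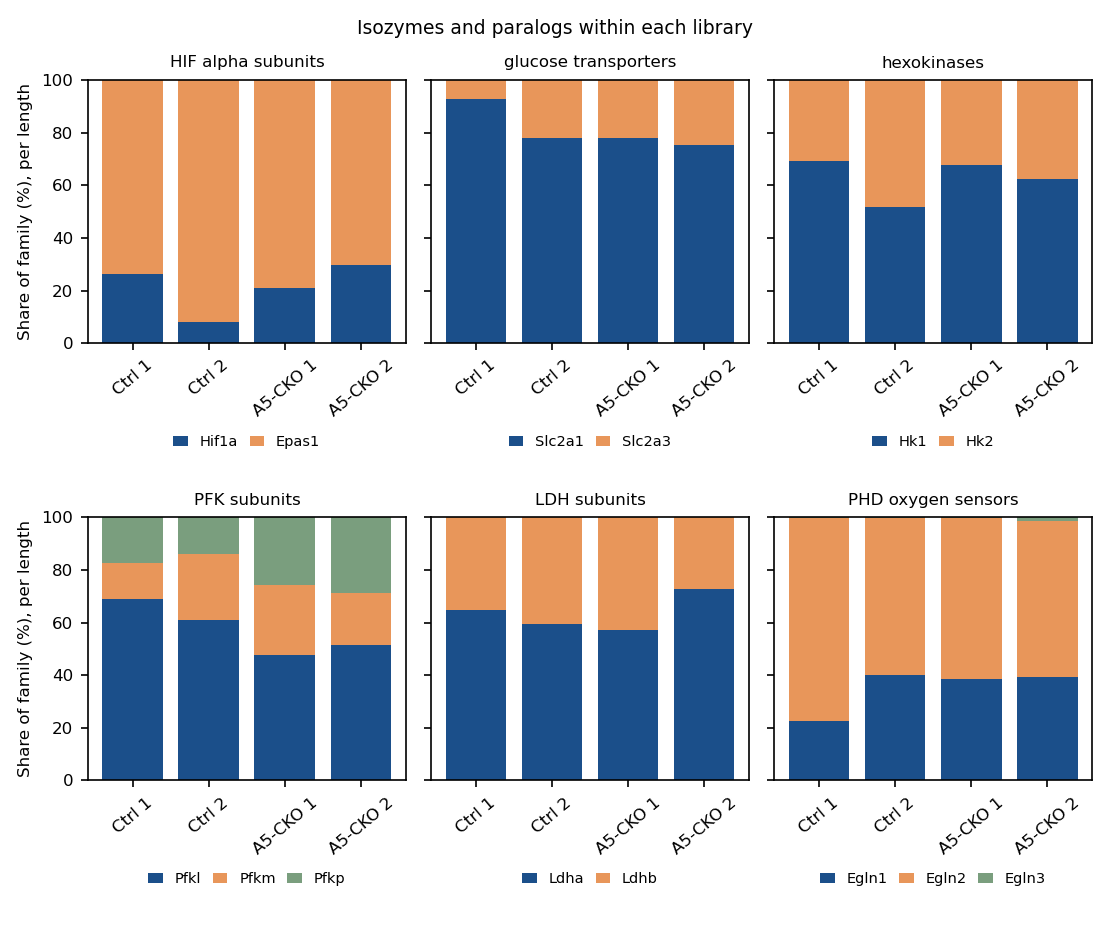
Shares (%, vertical axis) of each member in its family after division by transcript length, in each of the 4 libraries; each bar is 1 library and its segments add to 100%. In the panel of phosphofructokinase (PFK) subunits the Pfkl segment is 60.9% or more in Ctrl and 51.4% or less in A5-CKO libraries. Slc2a1 and Slc2a3 mirror each other and are separated by a narrow margin, and Egln3 rests on few counts. With these limits, the segments of Slc2a1, Slc2a3 and Egln3 also do not overlap between the genotypes. Those of the lactate dehydrogenase (LDH), hexokinase and HIF alpha subunit panels do.

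The 5 lower glycolysis genes, which carry the energy-yielding steps, all overlapped between the genotypes, with estimates above 0 for Pgam1 and Eno1 and below 0 for Gapdh, Pgk1 and Pkm; those 3 turned above 0 with scaling by total counts. Gapdh, the triose phosphate dehydrogenase, had 88.0 and 75.6 CPM in the Ctrl libraries and 48.2 and 84.2 CPM in the A5-CKO libraries. Pgk1, the first kinase to yield ATP, had 163 and 148 CPM against 102 and 188 CPM, and Pkm, pyruvate kinase, 798 and 808 CPM against 463 and 1029.7 CPM. A5-CKO 1 was the lowest library in each of these, and A5-CKO 2 was the highest for Pgk1 and Pkm. Pgam1, a mutase, followed the same order with 68.7 and 56.4 CPM against 44.1 and 90.7 CPM. Eno1, enolase, had 75.5 and 26.8 CPM against 64.2 and 119 CPM, and its estimate of 0.84 (SE 0.54) became 0.25 without Ctrl 2 and 1.84 without Ctrl 1. Gene counts do not separate the splice forms of Pkm.

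Genes of lactate production and transport had estimates below 0 in 4 of 4, with a median log2 fold change of -0.52 (-0.21 by total counts); Slc16a3 lay above 0 with RLE, upper-quartile and total-count scaling. Ldha, the lactate dehydrogenase subunit that favours lactate formation, had 930.0 and 818 CPM in the Ctrl libraries and 436 and 641 CPM in the A5-CKO libraries (log2 fold change -0.70, SE 0.36, unadjusted p = 0.0975 by edgeR), or -0.46 without A5-CKO 1. Slc16a1, a lactate carrier, had 117 and 128 CPM against 88.7 and 104 CPM (-0.35, SE 0.28). For both, as for Ldhb, the A5-CKO libraries lay below the Ctrl libraries. Slc16a3, the lactate exporter of glycolytic cells, had 19.8 and 19.1 CPM against 14.8 and 23.5 CPM and overlapped. Per length, Ldha made up 64.7% and 59.6% of the LDH transcripts in the Ctrl libraries and 57.0% and 72.8% in the A5-CKO libraries. The shares overlapped between the genotypes, which does not show that the subunit ratio was alike.

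The remaining hypoxia targets were mixed, with 4 estimates above 0 and 5 below (median -0.10, above 0 with scaling by total counts). P4ha1 and P4ha2, catalytic subunits of collagen prolyl hydroxylase, were lower in both A5-CKO libraries, P4ha1 with 129 and 188 CPM against 122 and 98.8 CPM (log2 fold change -0.52, SE 0.33, or -0.27 without Ctrl 2) and P4ha2 with 139 and 135 CPM against 80.1 and 104 CPM (-0.58, SE 0.30). Ankrd37, a small HIF target of little-known function, had 3.55 and 2.44 CPM against 4.80 and 4.83 CPM (0.68, SE 0.55). Its A5-CKO libraries were nearly equal and above both Ctrl libraries. Ddit4, an inhibitor of mTORC1, had 96.7 and 63.1 CPM against 75.0 and 74.4 CPM, so both A5-CKO libraries lay between the Ctrl libraries. Ndrg1, a stress-response gene, had 34.8 and 22.0 CPM against 18.0 and 61.9 CPM and spread most within A5-CKO cells. Adm, a vasodilator peptide, had 1.06 and 0.582 CPM against 0.951 and 2.95 CPM, and Car9, a carbonic anhydrase induced in hypoxia, 1.95 and 3.14 CPM against 2.67 and 2.09 CPM. Both were scarce and overlapped. Ero1a, an oxidase of disulfide formation in the endoplasmic reticulum, had 49.0 and 41.2 CPM against 42.6 and 57.1 CPM, a log2 fold change of 0.14.

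Per length, the members ran from Aldoa, with a mean of 453 RPKM (CPM divided by transcript length in kilobases), through Ldha (389 RPKM), Pkm (318 RPKM), Ldhb (225 RPKM) and Tpi1 (172 RPKM) to Car9 (1.22 RPKM), Adm (0.998 RPKM) and Egln3 (0.502 RPKM). Aldoa exceeded Ldha within each library, with 586 and 507 RPKM against 512 and 451 RPKM in the Ctrl libraries. In the A5-CKO libraries Aldoa had 277 and 442 RPKM and Ldha 240.4 and 353 RPKM. Between libraries their ranges overlapped, and the order was not tested. Epas1 averaged 122 RPKM and Egln2 66.8 RPKM, the highest means among HIF and its sensors, but in Ctrl 1 Egln2 (101.5 RPKM) exceeded Epas1 (70.3 RPKM). Hif1a made up 26.4% and 8.20% of the alpha subunit transcripts in the Ctrl libraries and 21.1% and 29.5% in the A5-CKO libraries. Several glycolytic genes have near-identical processed copies, and the share of 50-base windows of the transcript that also occur in another annotated gene was 82.5% for Gapdh, 72.2% for Eno1, 68.0% for Pgk1, 41.5% for Pgam1 and 34.4% for Pkm. Reads from such windows are not unique, so the levels of these genes are uncertain. They may be too low if only uniquely mapped reads were counted. Among the 6 members first described the share was 27.0% for Ldhb, 21.9% for Bnip3, 0.610% for Pfkfb3, 0.147% for Vegfa, 0.0543% for Pfkl, and 0% for Egln2. Estimates lay above 0 for 8 and below 0 for 14 of the 22 members with no shared window, with a median of -0.10.

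The A5-CKO libraries differed from each other in a way shared by many members. A5-CKO 1 was the lowest of the 4 libraries for 17 members (45.9%), against 25.7% of all genes tested, and the highest only for Vegfa (2.70%, against 27.8%). A5-CKO 2 was the highest for 13 members (35.1%, against 20.2%), and 26 of the 37 were lower in A5-CKO 1 than in A5-CKO 2. The median deviation of the members from their mean over the libraries was -0.30 on the log2 scale in A5-CKO 1 and 0.0019 in A5-CKO 2, and in the Ctrl libraries it was 0.05 and 0.21. Without A5-CKO 2, 28 members lay below 0 and 9 above, with a median log2 fold change of -0.54, beside -0.07 over all genes. Without A5-CKO 1, 20 lay below and 17 above, with a median of -0.08, beside -0.08 over all genes. The balance of directions among the members thus depended on which A5-CKO library entered the comparison.

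**Figure D4:**
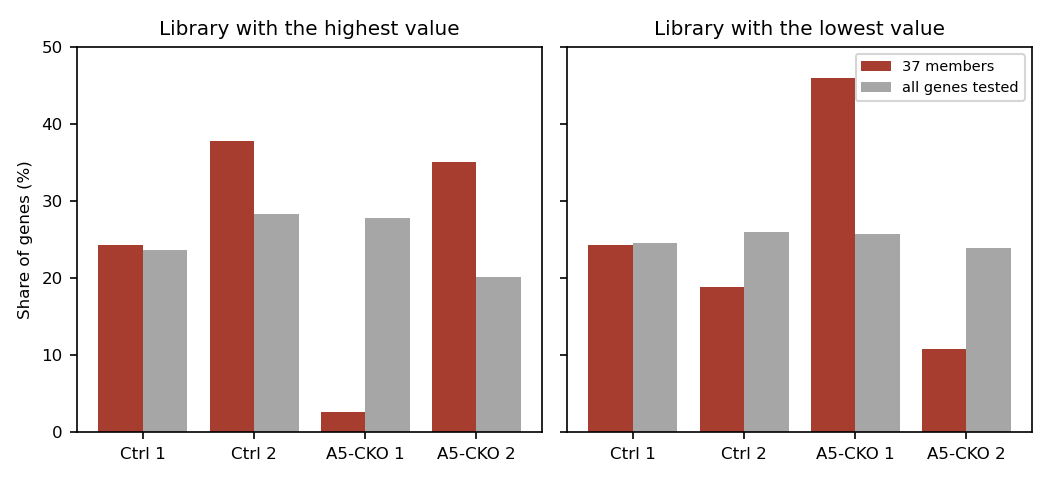
Share of genes (%, vertical axis) for which each of the 4 libraries was the lowest or the highest, for the 37 members and for all 16661 genes tested. A5-CKO 1 was the lowest library for 45.9% of the members and 25.7% of all genes, and the highest for 2.70% and 27.8%.

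Markers of other cell types also differed between replicates. The 7 mesenchymal markers summed to 398 and 149 CPM in the Ctrl libraries and 96.0 and 1023 CPM in the A5-CKO libraries, and the macrophage markers, given above, ranged from 478 to 2909.6 CPM in Ctrl and from 273 to 2270.4 CPM in A5-CKO cells. None of the 9 macrophage or 7 mesenchymal markers separated the genotypes, and none was at or under 3 counts in every library. A5-CKO 2, the highest library for 13 members, was also the library with the most mesenchymal RNA. Of these members, Pkm, Pgk1, Pgam1, Eno1, Ndrg1, Slc2a3, Slc16a3, Egln3 and Adm overlapped between the genotypes. The others were Hif1a, Pfkp, Pfkfb3 and Ankrd37, whose genotypes did not overlap. Vegfa, also without overlap, was highest in A5-CKO 1. The 7 markers of transitional (PATS) cells summed to 3565 and 1186 CPM against 1801 and 3058 CPM, and the 5 proliferation markers to 54.1 and 24.4 CPM against 50.8 and 112 CPM. In other lists more of the markers separated the genotypes. Of the 8 AT2 markers, 8 had estimates below 0 and 5 were lower in A5-CKO cells without overlap, as were 3 of 4 club cell markers (median log2 fold change -0.68, sums of 2809 and 2745 CPM against 1936 and 1271 CPM) and 3 of 5 ciliated cell markers (median -0.80), beside 23.5% of all genes tested. Of 7 AT1 markers tested, 4 were higher without overlap (median 0.63), beside 20.3%. Aqp5 was lower without overlap, with 981 and 951 CPM against 478 and 635 CPM. Ager (2 and 6 counts against 2 and 4) and Pdpn (3 and 0 counts against 17 and 3) had too few counts to be tested. The sums of all 9 AT1 markers listed, 1443 and 1243 CPM against 1261 and 1208 CPM, overlapped. The part of these cell types in the members' values was not tested.

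**Figure D5:**
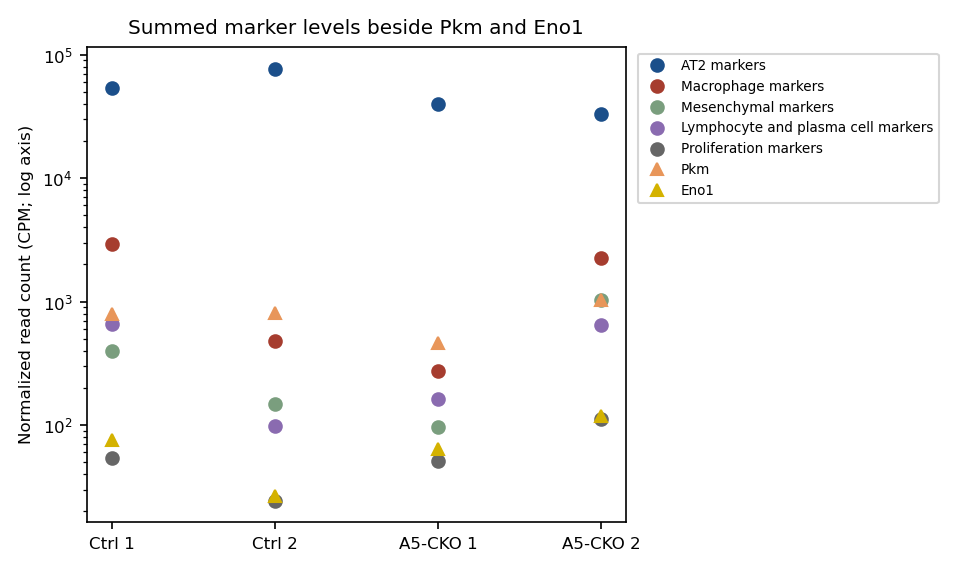
Summed normalized read counts (CPM, log axis) of 5 marker lists (circles) in each of the 4 libraries, beside the members Pkm and Eno1 (triangles). The macrophage and mesenchymal sums are higher in Ctrl 1 and A5-CKO 2 than in Ctrl 2 and A5-CKO 1, and the AT2 sum runs from 32774 to 76993.

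The wider pathway was read from 74 further genes in 5 lists, of which 66 were tested, and no gene passed an adjusted p of 0.05 in edgeR. An unadjusted p under 0.05 was reached by 1 gene that was higher in A5-CKO cells and 2 that were lower, beside a background of 9.18%. Of the 8 pentose phosphate pathway genes, which divert glucose 6-phosphate to NADPH and ribose, 8 had estimates below 0 (median -0.46), and 5 (62.5%) were lower in A5-CKO cells without overlap, beside 23.5% of all genes tested. Tkt, transketolase, had 585 and 597 CPM in the Ctrl libraries and 315 and 331 CPM in the A5-CKO libraries (log2 fold change -0.87, SE 0.32, unadjusted p = 0.0293 by edgeR). The next smallest p-values were those of Pgls (-0.86, or -0.25 without Ctrl 1) and G6pdx (-0.50, or -0.25 without A5-CKO 1). The replicates of Tkt differed little compared with the genotypes. By total counts Tkt was at -0.55 (unadjusted p = 0.124 by edgeR), and with a replicate block its unadjusted p was 0.0812 by edgeR.

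Gluconeogenesis genes, which run the pathway backwards, had estimates below 0 in 5 of 5 tested (median -0.60). Pck2, the mitochondrial enzyme that makes phosphoenolpyruvate, had 128 and 97.3 CPM against 55.6 and 57.0 CPM (log2 fold change -1.003, SE 0.30, unadjusted p = 0.0118 by edgeR), followed by Pcx (-0.62, or -0.35 without A5-CKO 1) and G6pc3 (-0.43, or -0.0091 after the GC and length correction). By total counts Pck2 was at -0.69 (unadjusted p = 0.0578 by edgeR). The 28 further hypoxia targets tested had 10 estimates above 0 and 18 below (median -0.15). Plod2, a collagen lysyl hydroxylase, had 4.49 and 1.40 CPM in the Ctrl libraries and 10.1 and 15.5 CPM in the A5-CKO libraries (log2 fold change 2.12, SE 0.67, unadjusted p = 0.0165 by edgeR), and Higd1a (-0.66) and Kdm4b (-0.67) came next. Both A5-CKO libraries of Plod2 were above both Ctrl libraries, opposite to the collagen hydroxylases P4ha1 and P4ha2. The 10 other HIF regulators had 5 estimates on each side of 0 (median 0.05), with the smallest p-values for Rbx1 (-0.58, or -0.23 without Ctrl 1), Elob (-0.59, or -0.058 without Ctrl 1) and Cul2 (0.37, or 0.17 without Ctrl 2). The 15 other glycolysis genes tested had 5 above 0 and 10 below (median -0.11), with the smallest p-values for Hkdc1 (-0.77, or -0.39 without Ctrl 2), Slc2a8 (-0.71, or -0.38 after the GC and length correction) and Pgm1 (1.27), and the value of Pgm1 became -0.37 without A5-CKO 1.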

How the data were processed

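The deposited values are whole read counts per gene for 4 libraries, made by the authors without pooling replicates. Per the submitters' processing notes, Trim Galore 0.6.10, HISAT2 2.2.1, featureCounts 2.0.3 and build mm10 were used. Under its RNA-seq heading the paper adds removal of ribosomal reads and duplicates. Its description of gene counting, from uniquely mapped reads after duplicate removal, stands under its MeRIP-seq heading. Whether reads were counted by strand is not given in the sources used here, so antisense and overlapping genes are uncertain.

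Counts of A5-CKO and Ctrl libraries were compared with the quasi-likelihood test of edgeR 4.0.16 (R 4.3.3) after filterByExpr and TMM scaling, with Benjamini-Hochberg adjustment over 16661 genes and a threshold of 0.05. Standard errors were derived from the fold change and its F statistic. The fits were tested on simulated data before use, with the same spread between replicates for every gene. At the observed spread, edgeR recovered 117 of 200 changed genes with 5 false calls, and DESeq2 135 with 21. The changes put into the simulation were larger than the estimate of any member, and scarce genes were not changed. Recovery of changes as small as those of the members was not simulated. Each library counted as 1 replicate, since replicates differed by more than counting noise. Alternatives were RLE, upper-quartile and total-count scaling, no filter, at least 10 counts in every library, DESeq2 1.42.0, voom in limma 3.58.1, a replicate block, a correction for GC content and length, and leaving out each library.

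Levels per length used curated GENCODE M21 transcripts, as did the search for shared 50-base windows. Promoters came from RefSeq (GRCm38.p6); where a gene had several starts, the one nearest its annotated boundary was used. All members, Alkbh5 and, of each other list, the 3 genes of smallest p were named. The members and lists were chosen with earlier results of these data known.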

Additional observations from a re-analysis of the deposited data

How the results depend on the processing

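No member passed an adjusted p of 0.05 under any alternative tried. Of 688 values of single genes under alternatives, 638 kept their direction and 50 changed sign, in 19 of 53 genes. Calls at an unadjusted p under 0.05 were not part of this count, and some of them did change. The cause was not tested for any of these changes, beyond the fewer samples of the fits that left out a library. The 53 genes include those picked from the other lists for their smallest p. Of the 37 members, 20 had no change of sign, with Pfkfb3, Vegfa, Egln2, Pfkl, Ldhb and Bnip3 among them. In 18 of these 20 members, the 6 named included, the genotypes did not overlap. Leaving out 1 library could hardly change the sign of these members, so a kept sign is no support. DESeq2 called 59 genes at an adjusted p of 0.05, Alkbh5 among them (log2 fold change -2.02, adjusted p = 0.0224), where edgeR called 0 and had 1530 at an unadjusted p under 0.05; adjusted p-values of Alkbh5 ran from 0.0224 to 0.878 over the alternatives. Scaling by total counts moved the members' median to 0.21.

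The replicate numbers do not pair the mice as far as the labels say, and the deviations of same-numbered libraries correlated at -0.35. With a replicate block, 754 genes and 2 members passed an unadjusted p of 0.05 in edgeR. These members were Egln2 (unadjusted p = 0.0221 by edgeR) and Bnip3 (unadjusted p = 0.0405 by edgeR).

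Values that changed sign were, with RLE scaling, Slc16a3 (0.027). With upper-quartile scaling they were Vhl (0.046), Pgk1 (0.0021), Slc16a3 (0.078) and Car9 (0.0057). With total counts they were Vhl (0.27), Slc2a1 (0.0078), Pfkm (0.18), Gapdh (0.011), Pgk1 (0.22), Pkm (0.22), Slc16a3 (0.30), Car9 (0.23) and Ddit4 (0.21). Without a filter Hk1 was -0.018, with at least 10 counts in every library Slc16a3 was 0.023, and in DESeq2 it was 0.012. After correction for both GC content and length they were Vhl (0.057), Pfkm (0.12), Pgk1 (0.070), Pkm (0.24), Slc16a3 (0.13), Car9 (0.21) and Ddit4 (0.33).

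Leaving out each library in turn left 1 to 8 members and 746 to 1668 genes past an unadjusted p of 0.05; the members' median was -0.54 to -0.079. A lone library left in a genotype was then assumed to vary like the other genotype. The log2 fold changes that changed sign in these fits ran from -0.12 to 0.38 for Arnt, -0.27 to 0.29 for Hk1, -0.64 to 0.27 for Pgk1, -0.42 to 0.26 for Slc16a3, -0.41 to 0.30 for Ddit4, -1.16 to 0.41 for Epas1, -0.14 to 0.067 for Vhl, -0.95 to 0.60 for Hk2, -0.56 to 0.48 for Pfkm, -0.54 to 0.53 for Pgam1, -0.34 to 0.24 for Car9, -0.11 to 0.34 for Ero1a, -0.94 to 0.10 for Slc2a1, -0.80 to 0.031 for Gapdh, -0.83 to 0.35 for Pkm, -0.37 to 1.99 for Pgm1, -0.36 to 1.26 for Egln3, -0.21 to 1.53 for Slc2a3 and -0.69 to 1.11 for Ndrg1. Replicates of a genotype varied with a biological coefficient of variation of 41.6%, and a p above the threshold does not show that the genotypes were alike.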
